A study of Homo sapiens with 20 samples.

Results

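Immunoglobulin variable genes (V genes) were taken as the rows whose symbol begins with IGHV, IGKV or IGLV followed by a digit, which gave 262 of 58288 genes. They comprised 102 heavy, 103 kappa and 57 lambda genes, and the annotation called 136 of them V genes, 124 V pseudogenes and 2 unprocessed pseudogenes. Of the 262 genes, 52 were orphons, copies that lie outside the locus of their chain. Polyadenylated RNA was sequenced in 20 libraries of DOHH2 and U2932, established lines of diffuse large B-cell lymphoma, exposed to the compound TK or to its vehicle DMSO. DOHH2 had 3 libraries with TK and 3 with DMSO at 8 h, and 3 with TK and 2 with DMSO at 18 h. U2932 had 2 libraries with TK and 3 with DMSO at 8 h, and 3 with TK and 1 with DMSO at 18 h. Each line is a single tumour-derived line, and the labels name no dose and give no source of the replicates, so p-values measure only the spread between these samples, which may be technical.

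A B cell assembles each immunoglobulin chain from one V segment, joined to a J segment (and, in the heavy chain, a D segment) upstream of the constant gene. Once a productive heavy and a productive light chain have been made, further assembly is shut down, so a clone carries one heavy chain and either a kappa or a lambda chain, and its V genes serve as a label of that clone. In germinal centre B cells the assembled V segments are then altered by somatic hypermutation, which places them at a distance from the germline sequence to which sequencing reads are aligned. Lymphoma lines such as these descend from one such clone. Joining segments in the same orientation deletes the DNA between them, while joining segments in opposite orientation inverts it and keeps it on the chromosome.

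The germline V exon of the lambda gene with the most counts is shown beside that of its closest relative, because counting rests on telling such copies apart. The sequences are from the GENCODE v29 transcripts (GRCh38), 5′ to 3′ on the coding strand, with the bases that differ within the pair in capitals, and were cut at 300 bases from the start of the V exon. IGLV2-11 (chr22:22792696-22792995, plus strand) and IGLV2-8 (chr22:22822982-22823281, plus strand) differed at 10 of these positions.
IGLV2-11: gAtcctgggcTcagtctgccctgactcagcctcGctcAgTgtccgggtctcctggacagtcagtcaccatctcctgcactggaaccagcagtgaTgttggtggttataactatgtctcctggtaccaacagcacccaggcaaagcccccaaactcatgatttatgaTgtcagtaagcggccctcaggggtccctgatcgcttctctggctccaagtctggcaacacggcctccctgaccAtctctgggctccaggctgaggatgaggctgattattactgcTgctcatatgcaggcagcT
IGLV2-8: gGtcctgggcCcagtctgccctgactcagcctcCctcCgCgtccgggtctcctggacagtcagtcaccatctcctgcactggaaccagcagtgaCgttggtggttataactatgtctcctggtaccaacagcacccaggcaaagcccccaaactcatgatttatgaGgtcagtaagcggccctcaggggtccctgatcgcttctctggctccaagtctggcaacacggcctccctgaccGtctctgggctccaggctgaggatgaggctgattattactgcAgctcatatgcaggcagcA
IGKV3-20 and IGKV3D-20, its copy in the distal cluster of the kappa locus, differed at 5 positions of the V exon. Their longest shared run was 136 bases, against 72 bases for the lambda pair.
Over the whole V exon the identity was 95.2% for the lambda pair and 98.3% for the kappa pair. Among the other genes described here, the V exon of IGKV1D-8 matched that of IGKV1-8 at 96.0%, IGHV4-61 matched IGHV4-59 at 97.7%, and IGKV3D-7 was identical to the orphon IGKV3OR2-268. Values of single members of such pairs are uncertain where reads could fall on either copy.

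Of the 262 V genes, 122 had at least 1 count in some library and 140 had none. DOHH2 libraries held counts of 87 V genes, U2932 libraries of 91, and 56 were found in both lines. At least 10 counts in every library of the line were reached by 13 V genes in DOHH2 (4 heavy, 1 kappa, 8 lambda) and by 8 in U2932 (0 heavy, 5 kappa, 3 lambda). The libraries held 30363255 to 52275430 counts in genes, and DOHH2 TK 18 h replicate 1 stood apart, since reads lacking a unique alignment made up 56.6% of its total and 20.7 to 34.3% of that of the others. Both lines had counts above 1 CPM for 7 of 7 B cell markers, which summed to 858 to 1536 CPM in DOHH2 and 2474 to 3122 CPM in U2932. Markers of myeloid cells summed to 0.0976 to 1.01 CPM in DOHH2 and 1.29 to 2.59 CPM in U2932, those of plasma cells to 3304 to 4358 CPM in DOHH2 and 905 to 1138 CPM in U2932, and those of T cells to 4.42 to 8.19 CPM in DOHH2 and 4.50 to 9.20 CPM in U2932. Epithelial markers summed to 0.230 to 1.36 CPM in DOHH2, against 21.4 to 33.3 CPM in U2932. Fibroblast markers summed to 5.08 to 32.2 CPM in DOHH2, against 0.952 to 6.58 CPM in U2932. A median over 1 CPM was reached by 0 of 5 epithelial markers in DOHH2 and 1 of 5 in U2932. For fibroblast markers it was 1 of 5 in DOHH2 and 0 of 5 in U2932. For T cell markers it was 1 of 6 and 2 of 6, for myeloid markers 0 of 7 and 1 of 7, and for plasma cell markers 6 of 6 in both. NK cell and erythroid markers stayed under 2 CPM in both lines. The part of these markers in the results was not tested. CPM is the count scaled to library size with TMM, the composition correction of edgeR.

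IGLV2-11 was the dominant V gene of DOHH2 and took nearly all lambda V counts of that line (chr22:22792491-22793007, plus strand, within the lambda locus). It had 177722, 376821 and 329758 counts in the TK 8 h libraries, against 210625, 405601 and 384524 in the DMSO 8 h libraries. At 18 h it had 271179, 416062 and 230894 counts with TK, against 232057 and 372331 with DMSO. These counts placed it between the 4th and the 8th most counted gene of each DOHH2 library, and the ranges of the TK and DMSO libraries overlapped at both times. It made up 99.2 to 99.6% of the lambda V counts in the 11 libraries. The genes that followed it in DOHH2 were IGLV3-19, at 29.5 ± 4.67 CPM (SD, n = 11), and IGLV3-21, at 5.67 to 9.79 CPM, while IGLV2-11 stood at 8331 ± 1533 CPM.

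No kappa gene of DOHH2 came near that level. IGKV1D-8, a V gene of the distal kappa cluster, had 69, 300 and 217 counts in the TK 8 h libraries, against 104, 365 and 265 with DMSO. At 18 h it had 134, 305 and 161 counts with TK, against 146 and 239 with DMSO. It took 72.6 to 96.0% of kappa V counts, which numbered only 95 to 404 in a library. The constant gene of the kappa chain, IGKC, had 3 to 315 counts in DOHH2.

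In U2932 the dominant light chain gene was IGKV3-20 (minus strand, in the kappa locus), and 1 library had none of it. IGKV3-20 had 29949 and 23905 counts in the TK 8 h libraries, against 22180, 21577 and 21532 in the DMSO 8 h libraries. At 18 h it had 20439, 26185 and 27829 counts with TK, against 0 counts in the sole DMSO library. In those 8 libraries it took 97.9 to 98.9% of kappa V counts, and it was the 122nd to 201st most counted gene. IGKV4-1 and IGKV5-2, the V genes of the kappa locus next to its joining segments, followed at 4.88 ± 0.810 CPM and 2.89 ± 0.240 CPM (SD, n = 9). The lambda chain of U2932 was represented by few counts: IGLV2-11 with 22 to 825, IGLV6-57 with 71 to 245 and IGLV5-52 with 14 to 38 counts in a library.

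**Figure D1:**
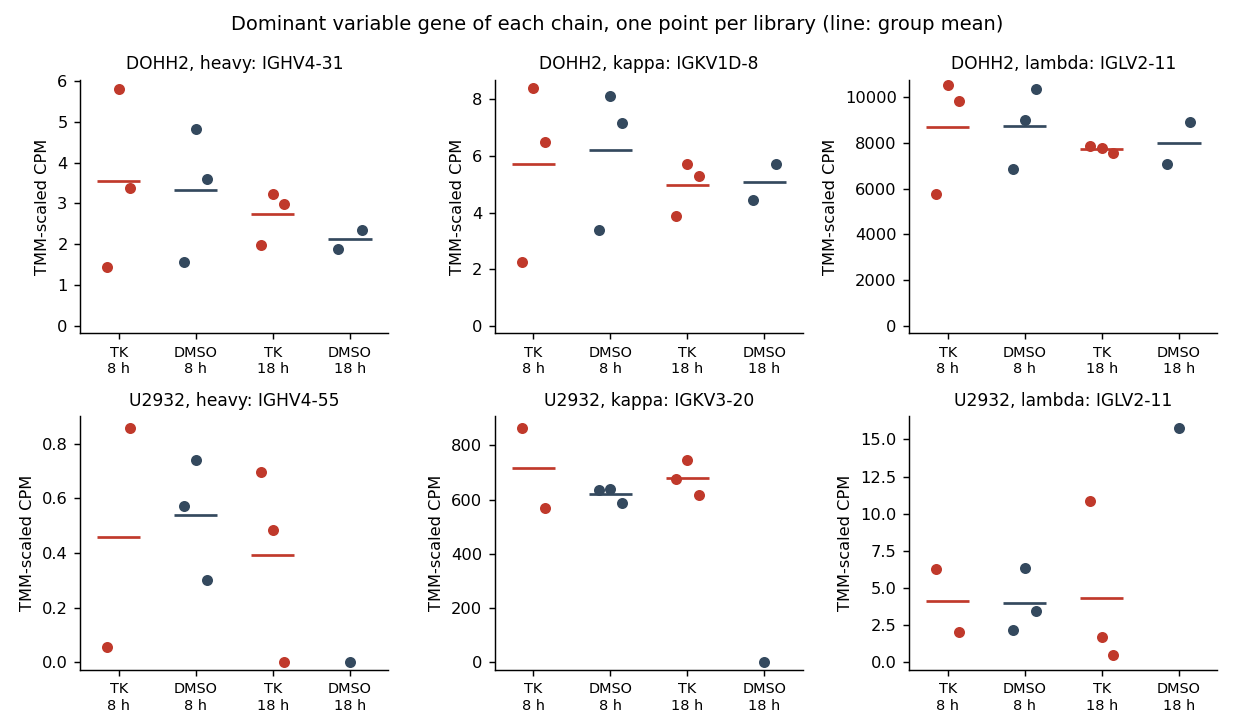
Level of the V gene with the highest mean CPM of each chain, by line (rows) and chain (columns), on linear axes of TMM-scaled CPM; points are libraries, red for TK and dark for DMSO, and lines are group means. IGLV2-11 lies between 5782 and 10535 CPM in DOHH2, IGKV3-20 between 569 and 863 CPM in U2932 libraries other than DMSO 18 h, where it is at 0, and the heavy genes lie under 6 CPM.

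The heavy chain had no comparable V gene in either line. IGHV4-31 led in DOHH2 with 44, 208 and 113 counts in the TK 8 h libraries, against 48, 217 and 133 with DMSO. At 18 h it had 68, 173 and 91 counts with TK, against 62 and 98 with DMSO. It took 19.3 to 41.8% of the heavy V counts of DOHH2, and IGHV7-81, with 38 to 145 counts, and IGHV1-3, with 28 to 96 counts, followed. In U2932 the gene with the highest mean was IGHV4-55, which is annotated as a pseudogene. It had 2 and 36 counts in the TK 8 h libraries, against 20, 25 and 11 with DMSO, and 21, 17 and 0 counts with TK at 18 h, against 0 with DMSO. Its counts overlapped those of IGHV2-70 (7 to 21) and IGHV4-61 (3 to 40), so U2932 had no dominant heavy V gene. Ranked by counts per kilobase of exon, IGHV2-70 stood first in its place.

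The scarcity of heavy V counts stood beside ample counts of heavy constant genes. IGHG4, the constant gene of IgG4, had 35638 to 85399 counts in DOHH2 libraries, and IGHM, the constant gene of IgM, 38805 to 186527 in U2932 libraries. All heavy V genes together had 228 to 617 counts in DOHH2 and 93 to 194 in U2932. For 100 counts of the heavy constant genes there were 0.406 to 1.09 heavy V counts in DOHH2 and 0.0658 to 0.222 in U2932. For the light chains the same ratio was 288 to 560 in DOHH2 (lambda) and 35.3 to 55.2 in 8 libraries of U2932 (kappa), and 0.746 in U2932 DMSO 18 h. The highest heavy ratio of U2932 came from DMSO 8 h replicate 3, the library with the fewest IGHM counts, while its 93 heavy V counts were the fewest of the line. Per length of exon, IGLV2-11 had a median of 507 reads for 100 of IGLC3, the lambda constant gene counted in DOHH2, and IGKV3-20 had 49.98 for 100 of IGKC in U2932. Whether V segments were lost between alignment and counting was not tested, since reads were not analysed here.

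The absence of IGKV3-20 from U2932 DMSO 18 h was not shared by the rest of the kappa locus in that library. IGKC had 91446 counts there, against 42563 to 80637 in the other 8. Scaled to depth, its 1749 CPM lay within the 1221 to 2070 CPM of the others. IGKV4-1 had 284 counts, against 134 to 285 elsewhere in U2932, and IGKV5-2 had 166, against 77 to 134. IGKV3D-20, the near copy of IGKV3-20 named above, had 12 counts there and 5 to 25 in the others, so the missing counts were not found under that name. At the ratio of IGKV3-20 to IGKC seen in the other 8 libraries, 31559 to 49924 counts would have stood beside its IGKC counts. Of 9093 genes with at least 200 counts in each of the other 8 U2932 libraries, IGKV3-20 was the only one at 0 in U2932 DMSO 18 h. The same scan of each of the other 19 libraries, set against the libraries of its own line, found none. The share of ambiguous counts in that library was 2.80%, against 2.37 to 2.79% in the other U2932 libraries. That of counts without a unique alignment was 22.8%, against 20.7 to 31.9%. The library held 49507627 counts in genes, so 31559 to 49924 counts are too few to be seen in these shares. The shares therefore cannot tell whether the missing counts stand there. The cause of the 0 was not tested.

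**Figure D2:**
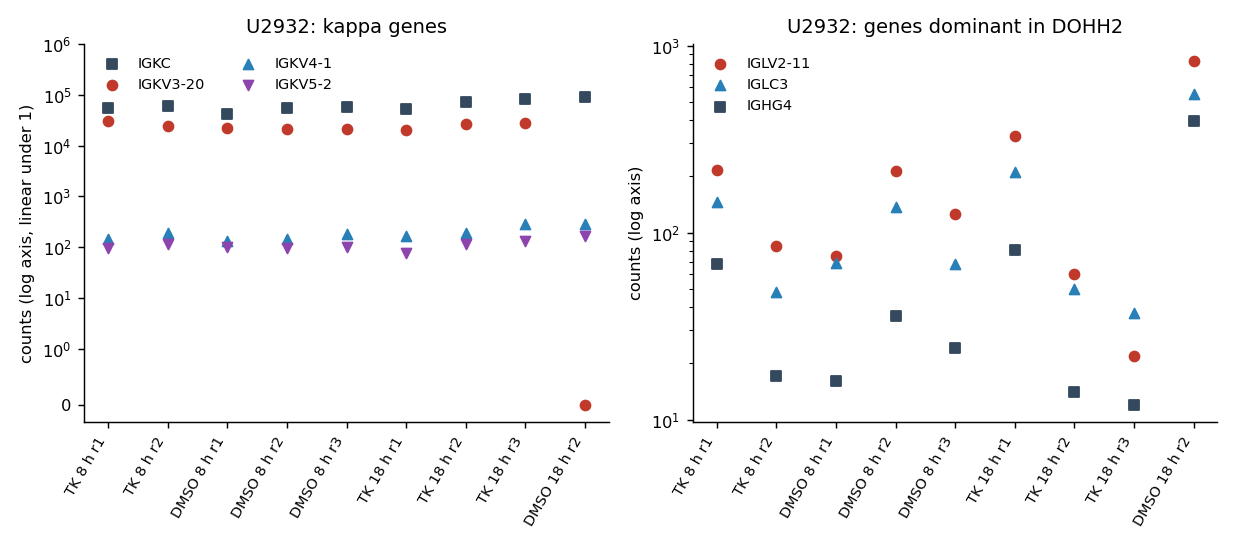
Counts per U2932 library of kappa genes (left; log axis, linear under 1) and of IGLV2-11, IGLC3 and IGHG4 (right; log axis), with r for replicate. IGKV3-20 is at 0 in DMSO 18 h, where IGKC stands at 91446, and the genes at the right are all highest in that same library.

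Each line also held small counts of the other line's immunoglobulin genes. In U2932, IGLV2-11 had 217 and 85 counts with TK at 8 h, against 75, 214 and 126 with DMSO, and 327, 60 and 22 with TK at 18 h, against 825 with DMSO. That is 0.00585 to 0.189% of its mean level in DOHH2. The same share was 0.0417 to 0.539% for IGLC3 and 0.0171 to 0.485% for IGHG4. For 100 counts of IGLC3 there were 59.5 to 185 counts of IGLV2-11 in U2932, against 286 to 556 in DOHH2. IGLC3 (37 to 553 counts) and IGHG4 (12 to 394 counts) followed IGLV2-11 across the 9 U2932 libraries. Their Pearson correlation of log2 CPM with IGLV2-11 was 0.96 and 0.93 (Spearman 0.95 and 0.98). All were highest in DMSO 18 h, and the values share libraries and scaling, so the correlations are a description. Another 9 genes were chosen for at least 10 CPM in every DOHH2 library and a median of 0 counts over the U2932 libraries. Together they had 0 to 39 counts in a U2932 library, 0 to 0.300% of their DOHH2 level. That choice fixes a low share in advance, so it is no yardstick for IGLV2-11. In DOHH2, IGKV3-20 had 0 to 17 counts and IGHM 0 to 237, which is 0 to 0.0829% and 0 to 0.212% of their mean in U2932. IGKC had 3 to 315 counts there, 0.00545 to 0.427% of its mean in U2932. Whether these counts came from the other line's RNA was not tested.

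Across the 11 DOHH2 libraries the minor V genes ranged widely in how they moved with IGLV2-11. The Pearson correlation of log2 CPM with IGLV2-11 was 0.91 for IGKV1D-8, 0.84 for IGHV4-31 and 0.83 for IGHA1, the constant gene of IgA1. It was 0.62 for IGHV1-3, 0.60 for IGLV6-57, 0.57 for IGLV1-47, 0.50 for IGLV5-52 and 0.30 for IGLV7-46. It was -0.04 for each of IGLV3-19, IGLV3-21 and IGLV1-44, -0.30 for IGLV2-8 and -0.46 for IGHV7-81. The constant genes IGLC3 and IGHG4 reached 0.38 and 0.34. These values share libraries and scaling factors and are a description. In each DOHH2 group IGKV1D-8, IGHV4-31 and IGHA1 had their fewest counts in replicate 1. With TK at 8 h, IGHA1 had 1059, 2235 and 1661 counts in replicates 1, 2 and 3. Replicate number was not removed from any correlation given here, and its part in them was not tested. Of 9860 other genes whose log2 CPM averaged 2 or more, PRNP (0.96), S1PR1 (0.95) and AC010186.2 (0.94) were most like IGHV4-31, and PARM1 (0.92), GPHN (0.91) and FITM2 (0.91) most like IGLV2-11, over 11 libraries. Over the 9 U2932 libraries, FASTKD2 (0.97), MTND2P28 (0.94) and RYK (0.93) were most like IGHV4-55. Without DMSO 18 h these were ZNF606 (0.97), FASTKD2 (0.95) and PPP6C (0.95). ELP2 (0.98), ZNF227 (0.96) and DNAJB6 (0.95) were most like IGKV3-20, and without DMSO 18 h these were TMEM39B (0.97), ACOT2 (0.94) and EAPP (0.93). All are the highest of 9860 correlations over few libraries, which can be high through that choice alone. No chance level was computed, so nothing is read from these names.

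The other lambda V genes with steady counts in DOHH2 lay on the side of IGLV2-11 that holds most lambda V genes. On the side away from the constant genes lay 45 lambda V genes, of which 7 had at least 10 counts in every DOHH2 library, with means that summed to 46.2 CPM. IGLV3-19 lay at -71.9 kb and IGLV3-21 at -80.8 kb from IGLV2-11, where negative means away from the constant genes. On the side of the constant genes lay 10, none of which had 10 counts in every library, and their means summed to 0.978 CPM, nearly all from IGLV2-8 at 30.2 kb. The U2932 libraries, in which IGLV2-11 had few counts, had 4.67 CPM on the far side, where 2 genes had 10 counts in every library. On the constant side they had 0.337 CPM, and none of the genes there had 10 counts in every library. IGLV6-57 averaged 3.36 CPM in DOHH2 libraries and 2.79 CPM in U2932 libraries. IGLV5-52 averaged 1.12 CPM in DOHH2 libraries and 0.700 CPM in U2932 libraries. With 45 genes on the far side and 10 on the other, most steady genes would lie on the far side wherever they fell. The far side sums came mostly from single genes, IGLV3-19 with 29.5 CPM in DOHH2 and IGLV6-57 in U2932. No preference for a side is therefore read from these values. In U2932, IGKV4-1 and IGKV5-2 lay 257 and 245 kb from IGKV3-20 on the side of the constant gene and on the opposite strand. There the 19 kappa V genes on the constant side summed to 8.17 CPM and the 56 on the far side to 3.19 CPM. The arrangement of the DNA at these loci was not measured here.

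**Figure D3:**
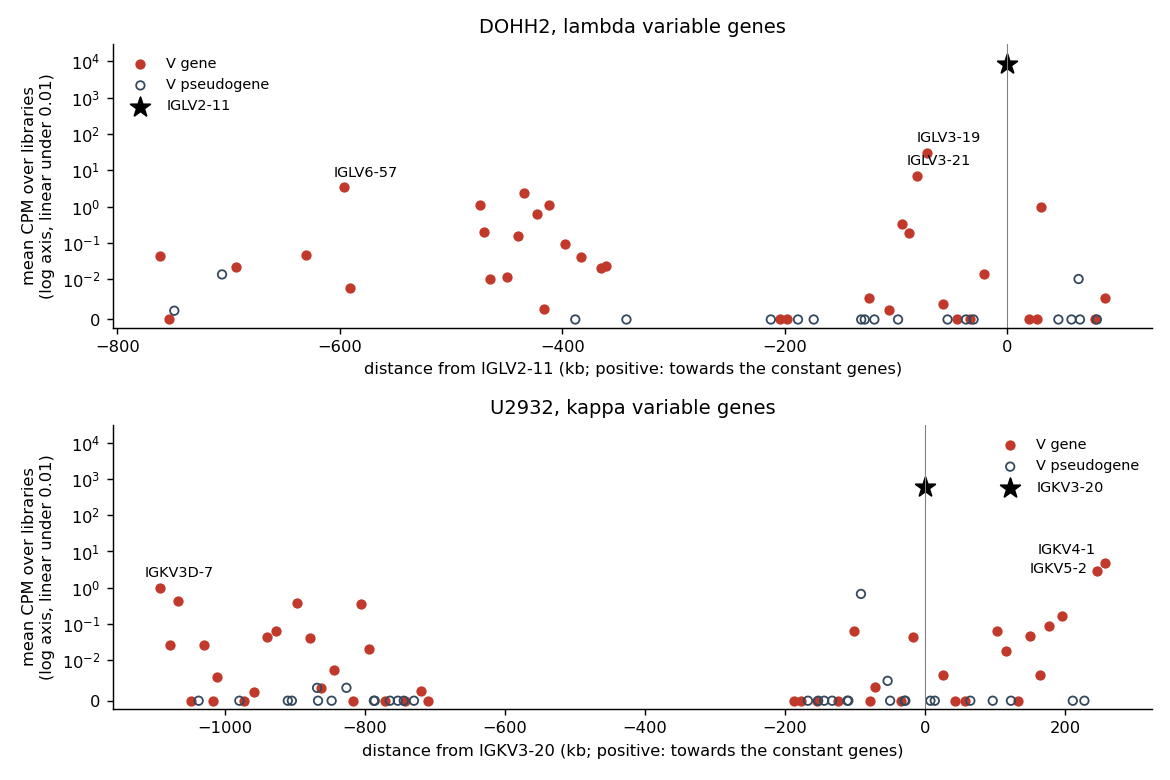
Mean level of each lambda V gene of DOHH2 (top) and kappa V gene of U2932 (bottom) against its distance in kilobases from the dominant gene, which is drawn as a star; red points are V genes, open points pseudogenes, and the level axis is logarithmic and linear under 0.01 CPM. In DOHH2 the genes above 1 CPM lie at negative distances, and in U2932 IGKV4-1 and IGKV5-2 lie at positive ones.

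TK changed no V gene of DOHH2 past the threshold. A test was possible for 36 of the 262 V genes (15 heavy, 9 kappa, 12 lambda), those with at least 0.288 CPM in 3 or more libraries. The annotation called 34 of them V genes and 2 V pseudogenes. In DOHH2 at 8 h, 0 of 36 V genes passed edgeR's quasi-likelihood test with a Benjamini-Hochberg adjusted p under 0.05, where 0% of all 16478 genes tested passed. At 18 h it was 0 of 36, against 0.0728% of all genes. At an unadjusted p under 0.05 the counts were 0 and 1 of 36, beside 497 and 1411 of the 16478 genes tested, and DESeq2 called 0 and 0. The median log2 change of the V genes was 0.00 at 8 h and 0.01 at 18 h, beside 0.01 and 0.02 for all genes tested. The filter ran over the libraries of both lines, so some of the 36 entered through U2932 alone. In DOHH2, 7 of them at 8 h and 8 at 18 h had a TK or DMSO group at 0, and in U2932 10 at each time. A gene without counts in a line could not pass there, so fewer than 36 were open to the test in each line.

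IGLV2-11 averaged 8720 ± 2568 CPM with TK at 8 h and 8753 ± 1777 CPM with DMSO (SD, n = 3 each), a log2 difference of -0.01 (SE 0.65, edgeR adjusted p = 1). At 18 h it averaged 7742 ± 148 CPM with TK (n = 3) and 7999 ± 1302 CPM with DMSO (n = 2), a log2 difference of -0.05 (SE 0.73, edgeR adjusted p = 1). These errors come from a fit that shares 1 dispersion per gene with U2932, where IGLV2-11 ranged from 22 to 825 counts. In a fit of the DOHH2 libraries alone the differences were -0.02 (SE 0.21) at 8 h and -0.04 (SE 0.24) at 18 h, and neither passed (smaller edgeR adjusted p = 0.996). IGHV4-31 had log2 differences of 0.08 (SE 0.41) at 8 h and 0.37 (SE 0.47) at 18 h, and IGKV1D-8 of -0.13 (SE 0.36) and -0.04 (SE 0.40). None of these passed. Without TK 18 h replicate 1, the library with the most reads lacking a unique alignment, 0 V genes passed at 18 h and the differences were -0.06 (SE 0.81) for IGLV2-11, 0.55 (SE 0.51) for IGHV4-31 and 0.11 (SE 0.43) for IGKV1D-8. IGLV3-19 had the smallest errors, with log2 differences of 0.02 (SE 0.15) at 8 h and 0.25 (SE 0.17, edgeR adjusted p = 0.759) at 18 h. The log2 ratio of IGHV4-31 to IGLV2-11 counts in a library lay between -11.98 and -10.82 with TK, and between -12.10 and -10.87 with DMSO. Its difference, TK minus DMSO within time, was 0.22 (exact permutation test, two-sided, p = 0.44 over 200 assignments, of which 1 alone corresponds to 0.005). With all heavy and light V genes summed, the difference was 0.10 in DOHH2 (exact permutation p = 0.445) and -2.96 in U2932 (exact permutation p = 0.15 over 40 assignments), where the library without IGKV3-20 enters.

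IGLV2-8 was the 1 V gene of DOHH2 below an unadjusted p of 0.05 with TK. It had 4, 3 and 63 counts with TK at 18 h, against 105 and 147 with DMSO, while at 8 h it had 29, 4 and 4 counts with TK, against 2, 10 and 6 with DMSO. The TK 18 h libraries all lay below the DMSO ones at that time, but within the TK group 1 library was far above the others. The log2 difference at 18 h was -2.27 (SE 1.03, edgeR adjusted p = 0.581). Without TK 18 h replicate 3 it was -5.32 and passed the threshold. IGLV2-8 shares an exon interval with MIR650 on the same strand, and how reads of that interval were assigned was not tested.

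In U2932 the single V gene that passed did so through the DMSO 18 h library. At 8 h, 0 of 36 V genes passed with TK, where 0% of all genes passed, 0 V genes and 276 of all 16478 genes had an unadjusted p under 0.05, and DESeq2 called 0. IGKV3-20 averaged 716 ± 208 CPM with TK (n = 2) and 621 ± 28.6 CPM with DMSO (n = 3) at 8 h, a log2 difference of 0.21 (SE 0.36, edgeR adjusted p = 1). In a fit of the U2932 libraries alone it was 0.20 (SE 0.15, edgeR adjusted p = 0.993). At 18 h, 1 of 36 V genes passed, IGKV3-20, where 0.0182% of all genes passed. It averaged 680 ± 65.0 CPM with TK (n = 3), at least 11847-fold higher than the floor of 3 counts in the DMSO library (0.0574 CPM), with an edgeR adjusted p of 2.2e-06. With DMSO 8 h as the control and that library left out, 0 V genes passed, and IGKV3-20 differed by 0.13 (SE 0.32, edgeR adjusted p = 0.813). In DMSO, IGKV3-20 was again the 1 V gene that differed between 18 h and 8 h in U2932, where 0.0364% of all genes did (DESeq2 called 1 as well). The DMSO comparison between the times rests on 1 library at 18 h. In it 21 V genes had a positive and 10 a negative log2 change (median 0.25). For all genes tested these were 8148 and 8228 (median 0). With TK in U2932, 0 of 36 V genes passed between the times, where 0.218% of all genes did, 2 V genes and 3077 of all genes had an unadjusted p under 0.05, and DESeq2 called 0.

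Besides IGKV3-20, 5 V genes of U2932 had an unadjusted p under 0.05 with TK at 18 h, where 1227 of all 16478 genes did, and the median of the V genes was -0.23, beside 0.00 for all genes tested. IGLV1-47 had 3, 4 and 4 counts with TK, against 18 with DMSO, and IGLV3-19 had 0, 0 and 2, against 5. IGLV6-57 had 93, 117 and 129 counts with TK, against 245 with DMSO, a log2 difference of -0.60 (SE 0.29, edgeR adjusted p = 0.667). IGHV4-28 had 10, 13 and 9 counts with TK, against 0 with DMSO, and IGHV4-55 is described above. IGLV2-11 averaged 4.34 ± 5.65 CPM with TK (n = 3) and had 15.8 CPM with DMSO, a log2 difference of -1.92 (SE 0.93, edgeR adjusted p = 0.684). Without TK 18 h replicate 1, the difference in IGLV2-11 was -3.90 and passed, which brought the count of V genes to 2. Each of these values rests on the 1 DMSO library, in which IGLV2-11 and its companions were highest, so TK and that library cannot be told apart. Between 18 h and 8 h in DOHH2, 0 of 36 V genes passed with TK and 0 with DMSO, where 1.57% and 0.631% of all genes did. The counts at an unadjusted p under 0.05 were 3 and 1, beside 2973 and 1786 of all genes. DESeq2 called 2 V genes and 880 of all genes with TK, and 0 V genes and 280 of all genes with DMSO.

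**Figure D4:**
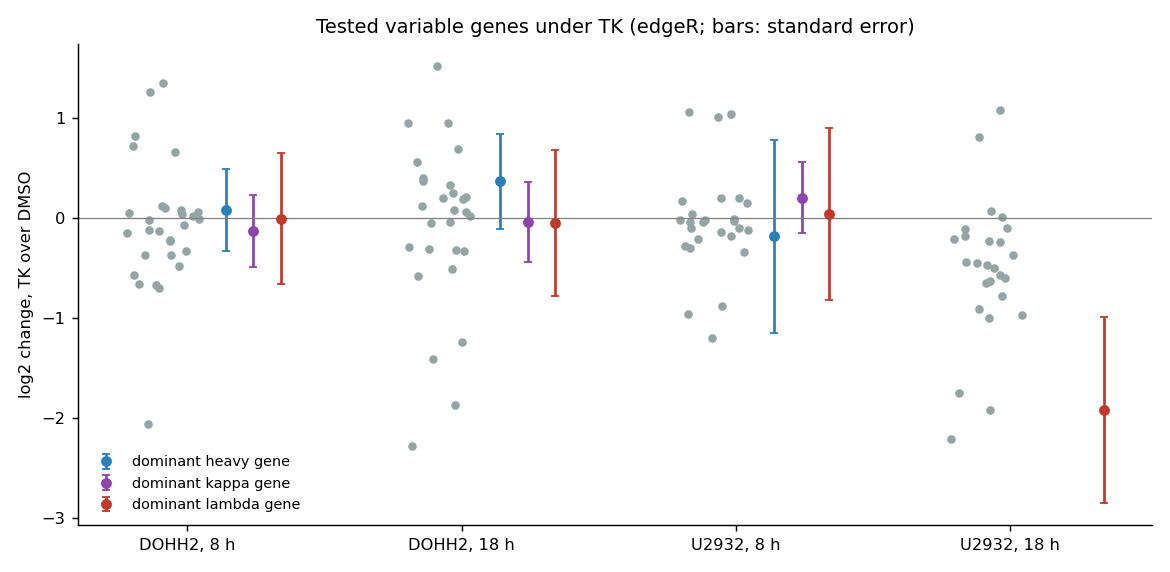
Log2 change with TK over DMSO (edgeR) of tested V genes, by line and time; grey points are all V genes with counts in both arms, and coloured points with bars (standard error) repeat the dominant genes. Shown are 29 and 28 genes in DOHH2 and 26 and 26 in U2932 at 8 h and 18 h; genes with an arm at 0, IGKV3-20 and IGHV4-55 at 18 h in U2932 among them, are not drawn, and the coloured points of DOHH2 lie within 0.4 of 0.

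The levels of the V genes in the lines were set side by side in the DMSO libraries at 8 h. In DMSO at 8 h, 31 of 36 V genes passed edgeR's test at an adjusted p under 0.05, 16 higher and 15 lower in DOHH2 than in U2932, where 67.8% of all genes passed (33% higher and 34.9% lower). Many V genes entered the test through the line in which they are high, so nothing is read from this count. IGLV2-11 averaged 8753 CPM in DOHH2 and 3.98 CPM in U2932. IGKV3-20 averaged 0.256 CPM in DOHH2 and 621 CPM in U2932. Both genes were chosen for their level in 1 line, so these values are a description. Of the others with the largest differences, IGLV3-19 had 844 to 1148 counts in DOHH2 and 0 to 1 in U2932. IGKV4-1 and IGKV5-2 had no counts in these DOHH2 libraries and 134 to 180 and 95 to 101 in those of U2932. IGLV3-21 had 187 to 315 counts in DOHH2 and 0 in U2932, and IGHV1-3 had 44 to 96 in DOHH2 and 0 in U2932. IGHV4-55 and IGKV1D-43 had no counts in DOHH2, and 11 to 25 and 13 to 16 in U2932. IGHV7-81, with counts in both lines, was higher in DOHH2 by 2.18 on the log2 scale (SE 0.32). IGLV6-57, found in both lines, averaged 3.38 CPM in DOHH2 and 2.35 CPM in U2932, a log2 difference of 0.53 (SE 0.22, edgeR adjusted p = 0.0387). The 5 that did not pass were IGHV2-70, IGHV4-59, IGLV1-51, IGLV2-8 and IGLV5-52.

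Genes that act around the V genes also showed no change with TK past the threshold. None of 12 constant and joining chain genes tested, 22 genes of B cell receptor signalling, 11 of V(D)J recombination, 13 of somatic hypermutation and class switching and 21 transcription factors of immunoglobulin genes passed edgeR's test in any of the 4 TK comparisons, and DESeq2 called none either. At an unadjusted p under 0.05, U2932 at 18 h had 3 constant genes, 2 receptor signalling genes, 2 recombination genes, 1 hypermutation gene and 1 factor, beside 1227 of all 16478 genes. DOHH2 at 18 h had 4 receptor signalling genes, 1 recombination gene and 1 hypermutation gene, beside 1411 of all genes. DOHH2 at 8 h had 2 recombination genes, and U2932 at 8 h had none. The gene with the smallest p of each list, in U2932 at 18 h, is given next. Its TK values are means of 3 libraries, and its DMSO values come from 1 library. IGHG4 is also among the genes described above as highest in that library. IGHG4 averaged 1.12 CPM with TK and 7.54 CPM with DMSO (edgeR adjusted p = 0.404). FCGR2B, the inhibitory Fc receptor of B cells, averaged 3.74 CPM with TK and 7.27 CPM with DMSO (edgeR adjusted p = 0.374). UNG, a uracil glycosylase of base excision repair, averaged 105 CPM with TK and 170.3 CPM with DMSO (edgeR adjusted p = 0.374). XRCC4, of the end-joining complex, averaged 40.9 CPM with TK and 26.5 CPM with DMSO (edgeR adjusted p = 0.469), and POU2AF1, the B cell coactivator of octamer factors, 380.1 CPM with TK and 536 CPM with DMSO (edgeR adjusted p = 0.627). In DOHH2 at 18 h, 21 of 22 receptor signalling genes had a positive log2 change (median 0.15) and 20 of 21 transcription factors did (median 0.15), beside 8712 of 16478 genes (median 0.02) for all tested. In the same comparison 3 constant and joining chain genes had a positive and 8 a negative log2 change (median -0.24), 5 hypermutation genes a positive and 8 a negative one (median -0.03), and 6 recombination genes a positive and 5 a negative one (median 0.02).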

How the data were processed

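RNA-seq of polyadenylated RNA (20 libraries in 8 groups) was deposited as whole-number counts per gene. The submitters' processing notes state that the authors used STAR, HTSeq and edgeR with GRCh38.p10. Versions, the strand setting, the annotation release and the handling of multiply aligned reads are not stated there. Multiply aligned reads, and reads far from the germline sequence, can be lost from V genes. Of the deposited counts, 32.7 to 62.7% stood in 5 summary rows, which were left out of library sizes and tests.

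Symbols came from the files. Types, coordinates and sequences came from GENCODE v29, which held all 262 V genes under the same versioned identifier. A single edgeR 4.0.16 fit (R 4.3.3, robust quasi-likelihood, TMM, 1 coefficient per group) covered all libraries and 16478 of 34160 genes, those with 10 counts per median library in at least 3 libraries. Benjamini-Hochberg adjustment ran over all genes fitted, at 0.05. DESeq2 1.42.0 was an alternative. The fit was tested on simulated data. Shares and ratios used raw counts. A group at 0 was given a floor of 3 counts, which covers counting error only. Permutation tests were exact, within time. In U2932 the ratio of single heavy and light genes was undefined, since both had libraries at 0.

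Members, lists and rules were chosen with earlier results of these data known. Named genes are the leading 3 V genes of each chain and line, those called with TK, up to 5 higher and 5 lower between the lines, the 3 other genes most like each dominant gene and the leading gene of each list. IGLV2-8, IGKV3D-20, IGLV1-47, IGHV4-28, constant genes other than by this rule, and list genes called over time were added after their values were seen. Some items are not reported here.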

Additional observations from a re-analysis of the deposited data

Results flagged for a closer look

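Values of 13 measures were examined over the 9 U2932 libraries, and 4 had 1 library far from all others by Dixon's criterion, which chance meets in about 1 of 20 sets. All 4 were in DMSO 18 h replicate 2. IGKV3-20 had 0 CPM there, against 569 to 863 CPM in the others. The kappa V genes together had 13.0 CPM, against 580 to 873 CPM. IGKV3-20 had 0 counts for 100 counts of IGKC, against 34.5 to 54.6. IGLV6-57 had 4.69 CPM, against 2.02 to 3.34 CPM. The first 3 are the same missing counts of 1 gene.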

How the results depend on the processing

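Of 511 repeats of 45 results under other settings, 454 were rated the same. For log2 differences and ratios this meant the same direction and side of the threshold. For counts of V genes called it meant a count within a set fold of the reported one. For shares of the dominant gene it meant a median moved by no more than the SD between libraries. That SD was 32.8 percentage points for kappa in U2932, with the library at 0, so those repeats could hardly differ. The count of V genes called with TK at 18 h was 1 in DOHH2 without a filter (IGLV2-8), and between 0 and 1 on leaving out 1 library, where IGLV2-8 was the gene without TK 18 h replicate 3. In U2932 at 18 h it was 3 without a filter (IGHV4-55, IGKV3-20 and IGLV2-11), 2 with DMSO of both times as control (IGHV4-28 and IGKV3-20), 0 with DMSO 8 h alone, a setting added after seeing the data, and 1 to 2 on leaving out 1 library. Between the lines 12 V genes passed with a filter at 50 counts, under which 14 were tested. Without a filter 40 of 122 passed, and with the replicate block 29.

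Log2 differences that did not pass in the reported fit and passed without a filter were 6.83 for IGHV4-55 with TK at 18 h in U2932 and -7.33 for it in DMSO over time, where the DMSO 18 h library is at 0 and no bound follows, -1.99 and 2.07 for IGLV2-11 in the same comparisons, and -2.28 for IGLV2-8 in DOHH2 at 18 h. With DMSO 8 h alone as control in U2932, IGKV3-20 differed by 0.13 and no longer passed, and IGHV4-55 (-0.53), IGLV2-11 (0.0709), IGKV5-2 (0.0758) and IGLV6-57 (0.39) changed sign. With DMSO of both times as control, IGHV4-31 (-0.0287) and IGLV2-8 (0.36) changed sign in DOHH2, and IGKV5-2 (0.031) and IGLV6-57 (0.14) in U2932. With library totals alone, IGLV3-19 (-0.025) in DOHH2 at 8 h, IGKV4-1 (-0.0574) with TK at 18 h in U2932 and IGLV2-11 (-0.076) over time with TK in U2932 changed sign. With the replicate block, IGLV2-11 with TK at 8 h in U2932 was -0.84, IGKV1D-8 over time in DMSO of DOHH2 0.0249 and IGHV4-55 over time with TK in U2932 0.23. The replicate block changed no call with TK. Same-numbered TK and DMSO libraries deviated from their group means with correlations of 0.0254 to 0.275, and differently numbered ones with -0.248 to 0.0666. In DOHH2 at both times and in U2932 at 8 h, each TK library correlated best with its same-numbered DMSO library, where that existed. In a group of 2 libraries the deviations mirror each other, so the values of DOHH2 at 18 h and U2932 at 8 h are not separate. Some margins were small, 0.0684 against 0.0666 for U2932 TK 8 h replicate 1 and 0.0338 against 0.0146 for DOHH2 TK 8 h replicate 3. The match of numbers is at most a weak hint from the data and not from the design, so the numbers were not taken to pair the libraries. The reported errors and permutation tests therefore include any spread between replicate numbers. DESeq2 called more genes than edgeR over all genes tested, 90 against 12 with TK in DOHH2 at 18 h and 60 against 3 in U2932 at 18 h. The cause of these changes was not tested.

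On leaving out 1 library, log2 differences with TK at 8 h in DOHH2 ranged over -0.48 to 0.45 for IGHV4-31, -0.51 to 0.25 for IGKV1D-8, -0.16 to 0.22 for IGLV2-11 and -0.0677 to 0.0817 for IGLV3-19. At 18 h they ranged over -0.20 to 0.16 for IGKV1D-8, -0.20 to 0.13 for IGLV2-11 and -5.32 to -1.65 for IGLV2-8. In U2932 they ranged over -3.14 to 0.67 for IGHV4-55, -0.13 to 0.47 for IGKV3-20 and -0.97 to 0.66 for IGLV2-11 at 8 h, and over -3.90 to -1.35 for IGLV2-11 and -0.0171 to 0.13 for IGKV4-1 at 18 h. Over time with TK they ranged over -0.75 to 0.19 for IGHV4-31 and -0.58 to 0.18 for IGKV1D-8 in DOHH2, and -1.20 to 2.62 for IGHV4-55, -0.34 to 0.26 for IGKV3-20 and -1.95 to 1.04 for IGLV2-11 in U2932. Over time in DMSO of DOHH2, IGLV2-11 ranged over -0.31 to 0.027. U2932 DMSO at 18 h is 1 library and cannot be left out of its own comparison, and the promoter table used here holds no V gene, so the search for the octamer was not run. Most V genes had under 10 counts in every library, where differences were not detectable at this depth.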

Other observations

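Between 18 h and 8 h in DOHH2, 1.57% of all genes passed the threshold with TK and 0.631% with DMSO, and a few genes that act around the V genes were among them, a share from which nothing is read. With TK in DOHH2, CD79B, a signalling chain of the B cell receptor, averaged 101 CPM at 18 h and 171 CPM at 8 h, a log2 change of -0.76 (SE 0.15, edgeR quasi-likelihood adjusted p = 0.019), and POLH, a polymerase of somatic hypermutation, 61.8 CPM at 18 h and 40.4 CPM at 8 h, a log2 change of 0.61 (SE 0.15, edgeR adjusted p = 0.0418). With DMSO in DOHH2, IGLL1, a part of the surrogate light chain, averaged 4.97 CPM at 18 h and 1.59 CPM at 8 h, a log2 change of 1.64 (SE 0.33, edgeR adjusted p = 0.0207). In DOHH2, IGLV3-19 and IGLV3-21 had unadjusted p under 0.05 with TK over time, at log2 changes of 0.42 (SE 0.15, edgeR adjusted p = 0.158) and 0.56 (SE 0.21, edgeR adjusted p = 0.161), and did not pass. DESeq2 called 2 V genes in that comparison, beside 880 of all genes.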
